A study of Homo sapiens with 2 samples.

Results

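The endoplasmic reticulum (ER) folds secreted and membrane proteins with 2 linked chaperone systems, and 10 of the 332 genes in a table of chaperone expression encode their core parts. The members were chosen by name: CALR, CANX and CLGN for the lectin chaperones, and HSPA5, HSP90B1, HYOU1, HSPA13, SIL1, DNAJB9 and DNAJB11 for BiP and its cofactors. All 10 names were found in the table, each once. The RNA came from the HEK293 Flp-In T-Rex line, human embryonic kidney cells with a single recombination site for transgenes and a tetracycline-responsive repressor. The extraction text names HEK293T instead. The series concerns HSP70, RNA binding and RNA polymerase III. The deposited counts of both replicates are headed with the prefix NHS, which was not defined in the sources used here. Both libraries belong to 1 group, replicates 1 and 2, so no treatment could be compared, and the labels state neither separate cultures nor whether a line carrying tagged GFP or tagged HSPA1A, induced with tetracycline, was the one used.

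Calnexin (CANX), anchored in the ER membrane, and calreticulin (CALR), soluble in its lumen, hold glycoproteins through a glucose left on their N-linked glycans, and a folding sensor can put that glucose back for another round. BiP (HSPA5), the HSP70 of the ER, binds exposed hydrophobic stretches and cycles with ATP: J-domain proteins bring clients and trigger hydrolysis, and nucleotide exchange factors reset it. When unfolded proteins build up, transcription factors such as ATF6 raise many of these genes through ER stress response elements (ERSE) in their promoters.

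The elements are shown because they are a sequence feature that some members share and that the choice of members did not use. RefSeq promoter windows on GRCh38.p14, from 250 bases before to 50 after an annotated start site, were found for all 10 members, with 4 windows for CANX. The ERSE searched was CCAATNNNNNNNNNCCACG and the related ERSE-II was ATTGGNCCACG, both strands included. The ERSE consensus was first described on promoters of this gene family, among them HSPA5, HSP90B1 and CALR, so its presence there is background and not a finding. An exact ERSE lay in the windows of 4 of the 10 members (CALR, CANX, HSPA5 and HSP90B1). HYOU1 held no ERSE but 2 copies of ERSE-II. Of the other table genes with a promoter window, 3 of 256 held an ERSE and 0 held an ERSE-II. Over all 27305 genes with a promoter window the shares were 0.0916% for ERSE and 0.0696% for ERSE-II. The stretches below run 5′ to 3′ on the strand of the gene, with each exact element in capitals and 20 bases on either side. An element in reverse orientation reads CGTGG first and ATTGG last, or for ERSE-II CGTGG first and CCAAT last.
CALR, chr19:12938364-12938422, plus strand: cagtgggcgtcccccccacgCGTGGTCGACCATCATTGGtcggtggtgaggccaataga
CANX, chr5:179698758-179698816, plus strand: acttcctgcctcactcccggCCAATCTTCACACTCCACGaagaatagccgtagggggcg
HSPA5, chr9:125241371-125241429, minus strand: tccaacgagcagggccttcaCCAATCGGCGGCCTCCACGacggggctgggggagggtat
HSP90B1, chr12:103930196-103930359, plus strand: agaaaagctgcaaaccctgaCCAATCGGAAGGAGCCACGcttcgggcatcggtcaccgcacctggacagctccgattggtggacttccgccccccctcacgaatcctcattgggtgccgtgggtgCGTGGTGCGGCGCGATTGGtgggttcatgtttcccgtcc
HYOU1, chr11:119057254-119057410, minus strand: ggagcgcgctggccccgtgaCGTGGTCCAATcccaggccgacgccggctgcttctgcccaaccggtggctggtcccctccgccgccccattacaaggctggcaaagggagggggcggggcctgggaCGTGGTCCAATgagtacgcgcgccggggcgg

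Positions differed between the promoters. Counted from the start site, with negative numbers before it, the forward element of HSPA5 ran from -66 to -48. HSP90B1 had a forward element from -194 to -176 and a reverse one from -89 to -71. The reversed element of CALR lay farthest out, from -225 to -207. The ERSE-II copies of HYOU1, both reversed, ran from -185 to -175 and from -79 to -69. In CANX the same element fell in 3 of the 4 windows. CLGN, HSPA13, SIL1, DNAJB9 and DNAJB11 had no exact match to either element, which says only that these letters were not in these windows. No binding was measured here.

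**Figure D1:**
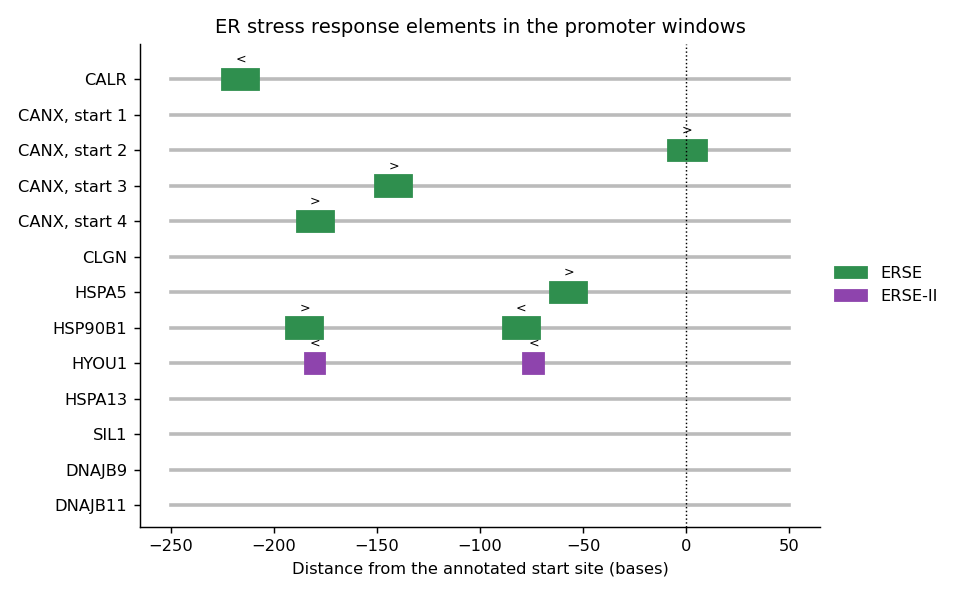
Each line is 1 RefSeq promoter window, drawn from 250 bases before to 50 bases after the annotated start site (x axis, bases), with 4 windows for CANX. Green boxes are exact ERSE matches, purple boxes are ERSE-II matches, and arrowheads give their orientation; CALR, CANX, HSPA5 and HSP90B1 carry ERSE, HYOU1 carries ERSE-II, and the other 5 members carry neither.

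The library totals behind the authors' values came out as 6828264 reads for replicate 1 and 4445676 for replicate 2. Of these, 17355 reads in replicate 1 came from the members, or 0.254% (95% interval by Wilson's method 0.250 to 0.258). In replicate 2 the members had 11723 reads, or 0.264% (0.259 to 0.269). These intervals cover counting error only. Each member had at least 62 reads in each library. No marker of the cell line is in a table of chaperones, so its identity could not be checked. Of 9 genes known mainly from other tissues, 7 were in the table; they held 14 reads in replicate 1 and 7 in replicate 2 in total, ODF1 and CRYAA had 0 reads in both, and none reached 1 RPKM, the unit that scales reads to length in kilobases and to library size. In bulk RNA a smaller number of cells with a transcript and less of it per cell cannot be told apart.

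CALR led the lectin group per kilobase of genomic span, the length behind the authors' values. That lead over CANX was smaller per kilobase of exon, and the pair was not tested. CALR (ENSG00000179218, chromosome 19, 12938578 to 12944489, plus strand, GRCh38) had 3160 and 1990 reads in replicates 1 and 2. That gave 78.3 and 75.7 RPKM per kilobase of span, a mean of 77.0 ± 1.81 (SD, n = 2). It ranked 4 among the 332 genes.

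CANX (ENSG00000127022, chromosome 5, 179678628 to 179731641, plus strand) had more reads than CALR, 6211 and 4219. Its span of 53013 bases is 8.50 times its exonic length, against 2.18 times for CALR. Per kilobase of span it therefore stood at 17.2 and 17.9 RPKM (mean 17.5 ± 0.526), below CALR in both libraries. Per kilobase of exon CALR had 171 and 165 RPKM and CANX 146 and 152 RPKM. The CALR to CANX ratio was 4.40 ± 0.235 with the span, 1.13 ± 0.0603 with the exonic length and 0.490 ± 0.0262 for reads not divided by length (SD, n = 2). Which of the pair was higher thus depended on whether length was taken into account, and the size of the gap on which length.

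CLGN, calmegin, is a calnexin relative known from mouse testis, where it serves sperm fertility. The gene (ENSG00000153132, chromosome 4, 140388453 to 140427661, minus strand) had 135 and 76 reads. It stood at 0.504 and 0.436 RPKM per kilobase of span and at 6.32 and 5.47 RPKM per kilobase of exon. CANX exceeded it 37.5 ± 4.97 times per kilobase of span and 25.5 ± 3.37 times per kilobase of exon, so the low place of CLGN among the lectins held under both lengths.

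In the BiP system HSP90B1 and HSPA5 stood above their cofactors on every length used. The gap between HSPA5 and the next gene, HYOU1, depended on the length: HYOU1 was 0.371 and 0.216 times HSPA5 in replicates 1 and 2 per kilobase of span, and 0.639 and 0.372 times with the longest coding transcript. HSP90B1 is the HSP90 of the ER, which takes over a selected set of clients, among them integrins and Toll-like receptors. It lies on chromosome 12 (ENSG00000166598, 103930107 to 103953931, plus strand) and had 5271 and 3451 reads. Its level was 32.4 and 32.6 RPKM per kilobase of span (mean 32.5 ± 0.128) and 164 and 165 RPKM per kilobase of exon. The libraries were within 0.558% of their mean for this gene, the closest among the members.

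HSPA5 (ENSG00000044574, chromosome 9, 125234853 to 125241382, minus strand) had 1076 reads in replicate 1 and 1070 in replicate 2, although the second library was smaller. It stood at 24.1 and 36.9 RPKM per kilobase of span (mean 30.5 ± 9.0) and at 40.3 and 61.6 RPKM per kilobase of exon (mean 51.0 ± 15.0). Per kilobase of span HSP90B1 was above HSPA5 in replicate 1 and below it in replicate 2, with ratios of 1.34 and 0.884. Per kilobase of exon HSP90B1 was higher in both, 4.08 times in replicate 1 and 2.68 times in replicate 2. HSPA5 is a compact gene, with exons over 59.9% of its span, while exons fill 19.7% of the HSP90B1 span.

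Of the exchange factors, HYOU1 was higher than SIL1 under every length used, but the gap shrank greatly without introns. HYOU1, a large relative of HSP70 that resets BiP (ENSG00000149428, chromosome 11, 119044188 to 119057227, minus strand), had 797 and 461 reads. Its level was 8.95 and 7.95 RPKM per kilobase of span and 15.2 and 13.5 RPKM per kilobase of exon. SIL1, whose loss in humans causes the ataxia of Marinesco-Sjögren syndrome (ENSG00000120725, chromosome 5, 138946724 to 139293557, minus strand), had 137 and 81 reads. SIL1 stood at 0.0578 and 0.0525 RPKM per kilobase of span, rank 274 of the 332 genes, and at 5.00 and 4.54 RPKM per kilobase of exon, rank 171.

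The SIL1 span of 346833 bases was 86.5 times its exonic length, the highest such ratio of the members. HYOU1 exceeded SIL1 153 ± 2.37 times per kilobase of span and 3.00 ± 0.0465 times per kilobase of exon (SD, n = 2). These SDs, too, may understate counting error. Several annotated genes overlap the SIL1 span on the other strand, among them MATR3 and SNHG4, and the use of strand in counting was not given in the sources used here. Reads assigned to SIL1 are uncertain to that extent. Annotated genes also overlap CALR, CANX, HSP90B1 and HYOU1, and HSP90B1 has processed pseudogenes (HSP90B2P and HSP90B3P) that could share its reads.

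Both J-domain cofactors were below HSPA5 on every length used, and their order depended on the length. DNAJB9, which promotes disposal of misfolded proteins and restrains the stress sensor IRE1 through BiP (ENSG00000128590, chromosome 7, 108569867 to 108574850, plus strand), had 87 and 62 reads. It stood at 2.56 and 2.80 RPKM per kilobase of span and at 4.49 and 4.92 RPKM per kilobase of exon. DNAJB11, which binds unfolded chains and hands them to BiP (ENSG00000090520, chromosome 3, 186567403 to 186585800, plus strand), had 209 and 148 reads.

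DNAJB11 was at 1.66 and 1.81 RPKM per kilobase of span and at 5.34 and 5.81 RPKM per kilobase of exon. The order of this pair turned with the length: DNAJB11 was 0.649 ± 0.00291 times DNAJB9 per kilobase of span and 1.19 ± 0.00532 times per kilobase of exon. With the longest coding transcript as length it was 2.71 ± 0.0122 times DNAJB9, and 2.39 ± 0.0107 times in reads alone (SD, n = 2). These SDs give only the spread between 2 libraries and may understate counting error, as DNAJB9 had 87 and 62 reads. Whether the pair differed per kilobase of exon was not tested. TBCCD1 and an unnamed coding gene overlap the DNAJB11 span, on the opposite and the same strand in that order. The pair summed came to 0.244 and 0.174 times HSPA5 in replicates 1 and 2 per kilobase of exon.

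HSPA13, an ER-associated HSP70 relative that lacks the peptide-binding domain (ENSG00000155304, chromosome 21, 14371115 to 14383484, minus strand), had 272 and 165 reads. Its level was 3.22 and 3.00 RPKM per kilobase of span and 9.50 and 8.85 RPKM per kilobase of exon. HSPA5 exceeded it 7.49 and 12.3 times per kilobase of span in replicates 1 and 2, so the ratio moved with HSPA5.

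**Figure D2:**
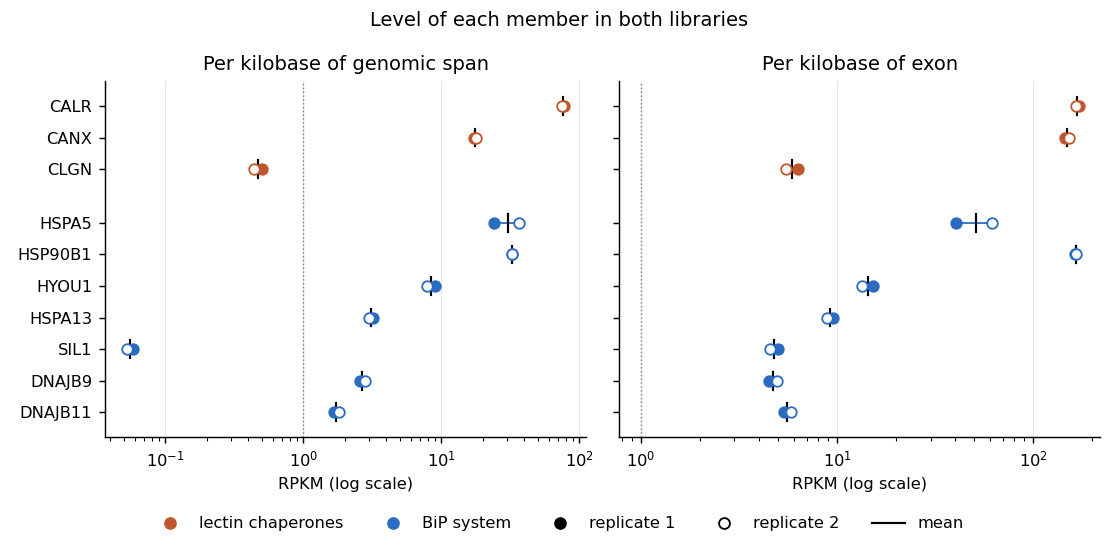
Level of each member in RPKM on a log axis, per kilobase of genomic span (left) and of exon (right); filled points are replicate 1, open points replicate 2, black ticks the mean, and the dotted line 1 RPKM. SIL1 and CLGN lie below 1 RPKM on the left only, CALR, CANX and HSP90B1 lie together with means of 149 to 168 RPKM on the right, and HSPA5 has the widest gap between replicates.

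Read from high to low per kilobase of span, the members ran CALR, HSP90B1, HSPA5, CANX, HYOU1, HSPA13, DNAJB9, DNAJB11, CLGN and SIL1. Neighbours were called different where their replicate values did not overlap and their mean log2(RPKM + 1) differed by more than a 95% limit, taken from the replicate spread over all table genes of at least 1 RPKM. By that rule 7 of the 9 neighbouring pairs differed. HSP90B1 and HSPA5 did not (difference 0.12, limit 0.19), since their order turned between the libraries, and neither did HSPA13 and DNAJB9 (0.16, limit 0.19). The limit is shared by all pairs, here and per kilobase of exon. It may be too narrow for HSPA5, the member whose libraries differed most. HSPA5 stood above CANX by 0.47 in replicate 1 and by 1.00 in replicate 2.

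Per kilobase of exon the order became CALR, HSP90B1, CANX, HSPA5, HYOU1, HSPA13, CLGN, DNAJB11, SIL1 and DNAJB9, and 4 of the 9 pairs differed. Neighbours at the top and at the bottom were the ones not told apart. CALR was not told apart from HSP90B1, nor HSP90B1 from CANX, with differences of 0.02 and 0.15 against a limit of 0.24. CALR and CANX were not compared by this rule. From CLGN through DNAJB11 and SIL1 to DNAJB9 no neighbouring pair passed the limit, with differences of 0.07, 0.19 and 0.02; pairs further apart were not compared. CANX stood above HSPA5 by 1.56, HSPA5 above HYOU1 by 1.73, HYOU1 above HSPA13 by 0.59 and HSPA13 above CLGN by 0.56, all on the log2(RPKM + 1) scale.

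At a mean of at least 1 RPKM per kilobase of span, 8 of the 10 members were counted, against 46.4% of all 332 genes. The exceptions were CLGN and SIL1. With exonic length all 10 were counted, against 74.4% of all genes. The median member stood at 5.78 RPKM per kilobase of span and 11.7 RPKM per kilobase of exon, against 0.784 and 5.17 RPKM for the whole table. These are levels of a named set, and no test was made of them.

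The lectin group and the BiP system were close in summed level, with the lectins somewhat higher in both libraries. The 3 lectins summed to 96.0 RPKM in replicate 1 and 94.1 in replicate 2 per kilobase of span, and the 7 genes of the BiP system to 73.0 and 85.1 RPKM. Their ratio was 1.31 and 1.11 in the 2 libraries (mean 1.21 ± 0.148, SD, n = 2). Per kilobase of exon it was 1.27 ± 0.0719, with the longest coding transcript 1.21 ± 0.0433 and for reads alone 1.18 ± 0.0391. With 2 libraries of 1 group the ratio is a description, with no test.

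Single genes weighed heavily in these sums per kilobase of span. On that scale the ratio was 0.229 ± 0.0187 without CALR, 1.958 ± 0.00884 without HSPA5 and 2.08 ± 0.404 without HSP90B1. The spread of the ratio between the libraries was small once HSPA5 was left out, at 1.964 in replicate 1 and 1.952 in replicate 2 per kilobase of span. Without HSPA5 the mean ratio was 1.59 per kilobase of exon, 1.39 with the longest coding transcript and 1.42 for reads alone. The ratio without CALR or HSP90B1 was calculated for the span only. CALR made up 46.3% and 42.3% of the members' summed RPKM per kilobase of span, but 30.1% and 28.1% per kilobase of exon. CANX, in turn, made up 10.2% and 9.99% with the span and 25.7% and 25.9% with the exons. HSPA5 held 14.3% in replicate 1 and 20.6% in replicate 2 per kilobase of span.

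Together the members held 8.56% of the summed RPKM of the table in replicate 1 and 9.17% in replicate 2 (mean 8.87 ± 0.430, SD, n = 2). With exonic length the share was 8.78 ± 0.207% and with reads alone 9.16 ± 0.195%. Their share of the table was thus about the same on each scale, while the shares of single members moved.

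**Figure D3:**
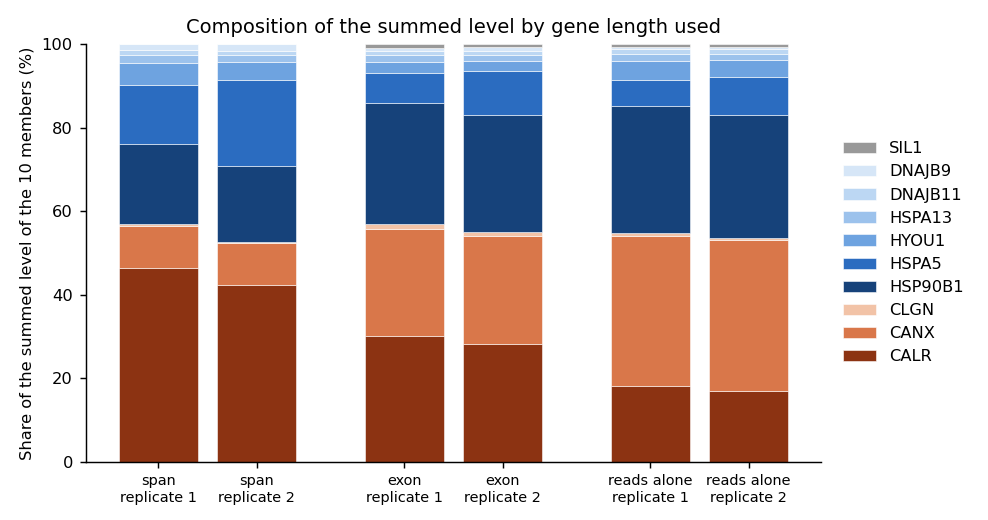
Stacked bars give each member's share (%) of the summed level of the 10 members in replicates 1 and 2, per kilobase of genomic span, per kilobase of exon and for reads alone; orange shades are lectins, blue shades and grey the BiP system. The lectin block is between 52.5% and 56.9% in all 6 bars, while CALR shrinks and CANX grows from left to right.

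Members that carry an ERSE were also the 4 highest. This was noticed after the values were seen and was not tested. Their means ran from 17.5 to 77.0 RPKM per kilobase of span, HYOU1 with ERSE-II stood at 8.45 RPKM, and the 5 members with neither element ran from 0.0552 to 3.11 RPKM. Per kilobase of exon the ranges were 51.0 to 168 RPKM with ERSE, 14.3 RPKM for HYOU1 and 4.70 to 9.17 RPKM with neither. The 3 other table genes with an ERSE were not all high. PDIA6, a disulfide isomerase, stood at 3.86 RPKM per kilobase of span and 51.4 RPKM per kilobase of exon. ERO1B, an ER oxidase, had 0.536 and 6.68 RPKM on these scales, and FICD, which modifies BiP with AMP, had 0.750 and 1.86 RPKM.

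HSPA5 was the 1 member whose reads differed between the libraries by more than counting error. Its 1076 reads in replicate 1 and 1070 in replicate 2, scaled to the library totals, gave a log2 ratio of replicate 1 over replicate 2 of -0.61 (95% exact interval -0.73 to -0.49). The exact binomial test, with Benjamini-Hochberg adjustment over all 332 genes, gave an adjusted p = 2.92e-20. That made 1 of 10 members called, against 4.52% of all genes in either direction and 1.81% lower in replicate 1. Earlier results of these data had already named HSPA5, so the call is a description of these 2 libraries. With edgeR's exact test, which takes its error from the spread between these same 2 libraries, the call was lost (log2 ratio -0.64, adjusted p = 1, unadjusted p = 0.0453). That test called 0 of all 332 genes, and 2 had an unadjusted p under 0.05. Among the 232 genes with at least 100 reads, HSPA5 ranked 2 by the size of its ratio.

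The other 9 members had log2 ratios between -0.13 (DNAJB9) and 0.21 (CLGN), and none passed the exact binomial test. CANX (ratio -0.06, interval -0.12 to -0.0044, adjusted p = 0.243, exact binomial test) and HYOU1 (ratio 0.17, interval 0.0034 to 0.34, adjusted p = 0.289) had unadjusted p-values under 0.05. Intervals were widest for the genes with few reads, from -0.62 to 0.36 for DNAJB9 and from -0.21 to 0.63 for CLGN. They were narrowest for CANX and for HSP90B1 (ratio -0.01, interval -0.07 to 0.05). Of the other members' intervals, only that of DNAJB9 overlapped the interval of HSPA5.

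**Figure D4:**
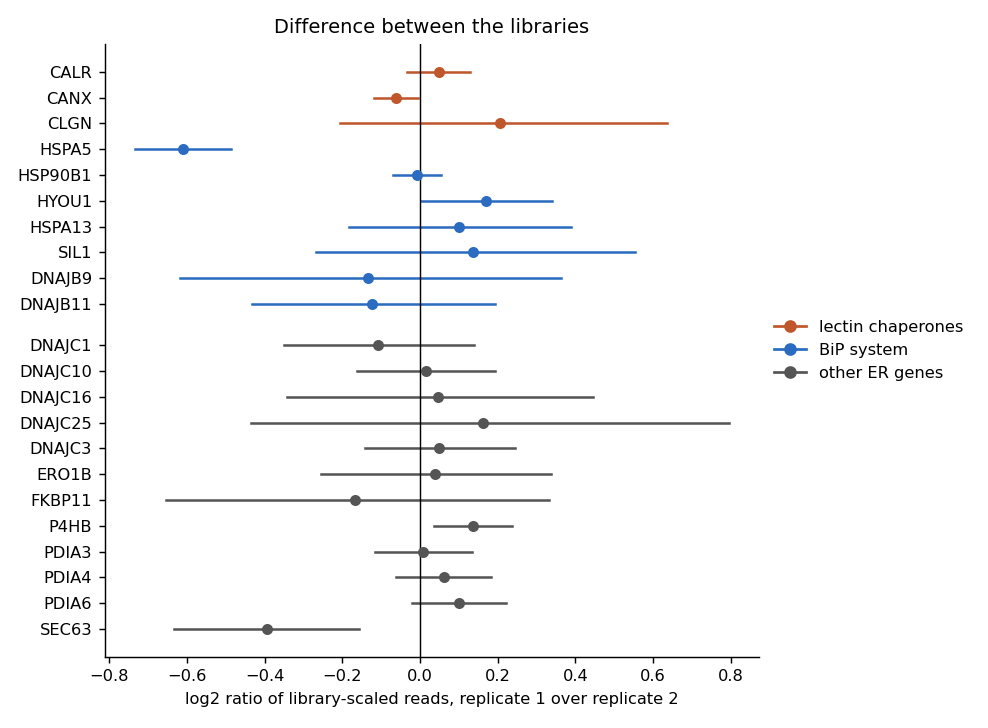
Points are log2 ratios of library-scaled reads, replicate 1 over replicate 2, and bars their 95% exact intervals for counting error, for the 10 members (orange and blue) and for other ER genes of the BiP cycle and the stress response (grey). HSPA5 at -0.61 and SEC63 at -0.39 are the points called in the exact binomial test.

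Further genes of both cycles and of the ER stress response were listed beside the members. Of 15 symbols listed for stress-inducible genes, among them ERO1LB as the older symbol of ERO1B, 8 were in the table: DNAJC3, PDIA4, PDIA6, PDIA3, P4HB, FKBP11, ERO1B and DNAJC10. None of them passed the exact binomial test, against 4.52% of all 332 genes. An unadjusted p under 0.05 was found for 1 of them, against 55 of all 332 genes. Their log2 ratios ran from -0.17 for FKBP11 to 0.14 for P4HB, the disulfide isomerase that led the list at 17.7 and 16.1 RPKM per kilobase of span in replicates 1 and 2. Among the 8 intervals, only that of FKBP11 (85 and 62 reads, -0.65 to 0.33) overlapped the HSPA5 interval. FKBP11 is a prolyl isomerase of the secretory pathway. Whether HSPA5 differed from any of these genes in its ratio was not tested.

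Of 13 further lectin-cycle genes, 6 were in the table. Of these, 2 reached 1 RPKM per kilobase of span, against 46.4% of all 332 genes. PPIB, a prolyl isomerase of the ER, was highest at 21.8 and 22.7 RPKM, followed by PDIA3, the disulfide isomerase that works with CANX and CALR, at 7.29 and 7.25 RPKM. The others, ERLEC1, EDEM1, EDEM2 and EDEM3, which act in disposal of misfolded glycoproteins, ran from 0.394 to 0.950 RPKM. With exonic length all 6 reached 1 RPKM, against 74.4% of all genes. None of the 6 differed between the libraries in the exact binomial test, against 4.52% of all genes. None of them had an unadjusted p under 0.05.

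Of 12 further BiP-cycle genes, 6 were in the table, all J-domain proteins. DNAJC10, a J-domain reductase, was the 1 gene to reach 1 RPKM per kilobase of span, at 1.25 and 1.23 RPKM. Over all 332 genes the share at that level was 46.4%. With exonic length all 6 reached 1 RPKM, led by DNAJC1 at 20.7 ± 1.08 RPKM, against 74.4% of all genes. SEC63, the J-domain partner of the translocation channel, had 319 and 273 reads and 5.44 and 7.15 RPKM per kilobase of exon. Like HSPA5 it was lower in replicate 1 (log2 ratio -0.39, adjusted p = 0.0261, exact binomial test). SEC63, too, was not called by edgeR's exact test, which called 0 of all 332 genes. The other 5 were not called, so the binomial test called 1 of the 6, against 4.52% of all genes.

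**Figure D5:**
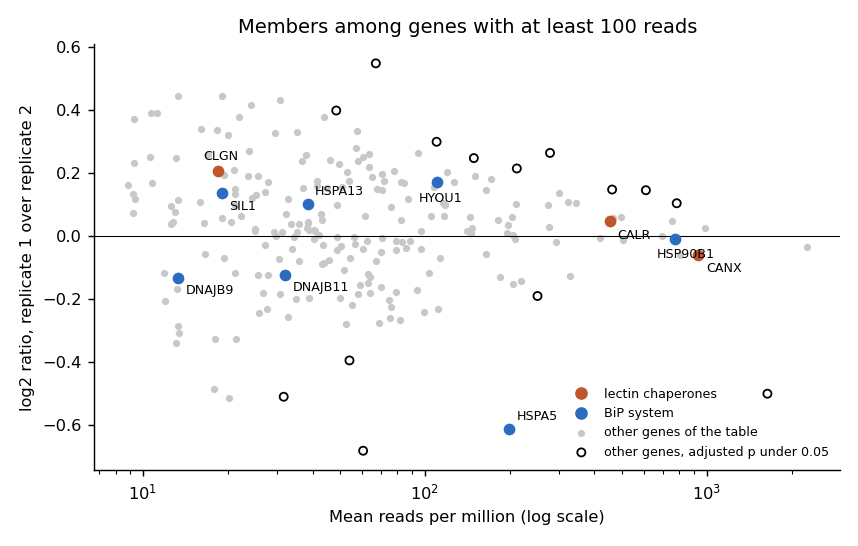
Each point is 1 of the 232 genes with at least 100 reads over both libraries, by mean RPM, reads scaled to library size (log x axis) and log2 ratio of replicate 1 over replicate 2; circles mark other genes with an adjusted p under 0.05. HSPA5 at -0.61 lies away from the other 9 members, which lie between -0.13 and 0.21.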

How the data were processed

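Stranded total RNA libraries were made from Trizol extracts, per the labels' protocols. Named in the submitters' processing notes, without role or order, are STAR 2.6.0b, Bowtie2 2.4.2, Trim Galore 0.6.4 and the build GRCh38. How reads were counted (program, annotation, strand, introns, multiple matches) was not given in the sources used here. In 1 table the authors deposited whole-number read counts for each replicate and a mean RPKM. That deposited RPKM equals the mean over replicates of reads per kilobase of genomic span, introns included, scaled to a library total. The totals were recovered by least squares (largest relative misfit 8.58e-14), and replicate RPKM was computed from them.

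Exonic length is the union of exons in GENCODE 29, which held all 332 identifiers. Gene limits did not all match: of the 10 members, 6 had the deposited start and 5 the deposited end in GENCODE 29. Values per kilobase of exon assume exonic reads only. The counts of the libraries were compared by an exact two-sided binomial test with library totals as exposure (scipy 1.17.1, threshold 0.05) and, as an alternative, by edgeR 4.0.16 with TMM scaling; ratios have 0.5 reads added. The binomial test was checked on simulated data with counting noise only, so the check does not cover any further spread between libraries. The test compares 2 libraries that may be technical replicates, and its p-values set their difference against counting error only. The libraries were kept as separate replicates, since over 275 genes their reads departed from proportion beyond counting noise (chi-square 1284).

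Members, lists and tests were chosen with earlier results of these data known. By rule, the genes named are all members, list genes passing the binomial test and the highest gene of each list except the other-tissue genes. All stress-inducible and further lectin-cycle genes in the table are also listed by name. ODF1 and CRYAA are named for their 0 reads. PDIA3, PDIA6, FKBP11, DNAJC1, ERO1B and FICD, and further genes named for an overlap or a motif, were chosen after their values were seen.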

Additional observations from a re-analysis of the deposited data

How the results depend on the processing

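Of 45 recalculated values, 31 held, 13 moved by more than the replicate SD (counts by over 1.5 times) and 1 lost its call. Ratios and counts were labelled only as held or moved, so a reversal among them would not show in this tally. With 2 replicates each value lies within the SD of their mean. The ratio and the members' share of the table with 1 replicate left out were therefore bound to count as held. Per kilobase of span the lectin to BiP ratio of 1.21 became 2.08 without HSP90B1 and 1.958 without HSPA5. Without CALR it was 0.229, which put the BiP system above the lectins. The ratio ran from 1.11 to 1.31 with either replicate left out. At 5 RPKM 5 members were counted instead of 8. The shares of all genes at 0.5 and 5 RPKM were not calculated. With exonic length 4 neighbouring pairs differed instead of 7, and the further lectin-cycle and BiP-cycle genes counted were 6 and 6 instead of 2 and 1. At 0.5 RPKM these were 5 and 3, and at 5 RPKM the BiP-cycle count was 0. With replicates rescaled to a median gene ratio of 1, 2 members were called, CANX (log2 ratio -0.10, adjusted p = 0.0109, exact binomial test) besides HSPA5. In that setting 20 genes were called, 17 of them lower in replicate 1, instead of 15 and 6. With edgeR 0 members were called, as were 0 of all 332 genes, and HSPA5 had a log2 ratio of -0.64 (adjusted p = 1); its dispersion comes from these same libraries. The members' share of the table was 10.5% without HSPA1A and HSPA1B, instead of 8.87%. Per kilobase of span the order of members was the same in replicate 1 alone for 9 of 9 neighbouring pairs and in replicate 2 alone for 8 of 9. Depth limits DNAJB9, CLGN and SIL1 most. No paired analysis was possible because both libraries belong to a single group.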
